A study of Mus musculus with 6 samples.

Results

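The 10 genes described here encode the main heat shock proteins of the HSP70 and HSP90 families, and they were chosen by symbol from the 32285 genes counted in every library: Hspa1a, Hspa1b, Hspa4, Hspa4l, Hspa5, Hspa8, Hspa9, Hsph1, Hsp90aa1 and Hsp90ab1. Single-nucleus RNA was measured in the retinas of rd10 mice (strain B6.CXB1-Pde6b-rd10/J), which carry a mutation in the rod phosphodiesterase gene Pde6b and lose their rods and then their cones. At postnatal day 18 (P18) the vitreous received either saline or 20 ng of recombinant IL-27, a cytokine of the IL-12 family, and tissue was taken at P20. The 3 saline control libraries (replicates 1, 2 and 6) and the 3 IL-27 libraries (replicates 4, 5 and 10) all carry the rd10 allele and all had an injection, and no wild type or uninjected retina was analysed here. The labels do not tell whether a library holds the retina of 1 mouse, so the p-values measure the spread between these libraries.

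HSP70 chaperones bind stretches of unfolded protein and release them in a cycle driven by ATP, helped by J-domain proteins that bring the substrate and by exchange factors that free the nucleotide. Many substrates then pass to HSP90, which holds kinases, receptors and other clients near their folded state. Cells under heat or other protein stress raise several of these genes through heat shock factor 1, and photoreceptors depend on the same chaperones to fold and carry the proteins of the outer segment.

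All 10 genes were matched by identifier to the GENCODE M21 annotation of GRCm38, as were 99.6% of the 32285 identifiers, and its coordinates are given on that assembly, while the build behind the counts is not given in the sources used here. Hspa8 spans chr9:40800984-40810087, Hsp90aa1 chr12:110690605-110702728, Hsp90ab1 chr17:45567775-45573271, Hsph1 chr5:149614287-149636376, Hspa4 chr11:53259814-53300457 and Hspa4l chr3:40744495-40796103. The principal transcripts of Hspa1a (chr17:34969190-34972156) and Hspa1b (chr17:34956436-34959238), which lie beside each other on the minus strand, have 1 exon each, and those of the other members have 9 to 19.

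The 250 bases before the start site are shown for Hspa1a and Hspa1b, because they make plain how alike the genes are, and for Hspa5, whose start carries a different stress element. RefSeq windows on GRCm38.p6 were found for 6 of the 10 members (Hspa8, Hspa9, Hsp90aa1 and Hsp90ab1 had none). Capitals mark GAANNTTC, a head-to-head pair of heat shock element units, in Hspa1a (chr17:34972157-34972406, minus strand) and Hspa1b (chr17:34959239-34959488, minus strand), and the endoplasmic reticulum stress element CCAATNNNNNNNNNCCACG in Hspa5 (chr2:34771840-34772089, plus strand).
Hspa1a: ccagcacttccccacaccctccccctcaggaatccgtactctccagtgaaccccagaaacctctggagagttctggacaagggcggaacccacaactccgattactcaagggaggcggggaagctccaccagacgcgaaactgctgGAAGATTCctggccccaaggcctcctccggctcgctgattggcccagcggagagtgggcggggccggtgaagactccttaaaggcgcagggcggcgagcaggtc
Hspa1b: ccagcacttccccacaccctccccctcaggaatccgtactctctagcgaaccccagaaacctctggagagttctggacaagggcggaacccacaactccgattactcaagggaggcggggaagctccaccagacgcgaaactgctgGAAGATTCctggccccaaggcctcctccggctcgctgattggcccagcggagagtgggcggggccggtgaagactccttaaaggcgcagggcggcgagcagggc
Hspa5: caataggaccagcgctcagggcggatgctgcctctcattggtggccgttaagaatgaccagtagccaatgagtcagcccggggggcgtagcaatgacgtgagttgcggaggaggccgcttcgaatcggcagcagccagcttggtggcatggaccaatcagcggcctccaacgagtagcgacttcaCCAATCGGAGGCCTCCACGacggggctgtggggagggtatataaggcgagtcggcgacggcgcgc
Hspa1a and Hspa1b shared 247 of these 250 bases, and each held GAANNTTC 104 bases before the start. That motif, which reads the same on both strands, occurred in 6.69% of 32851 promoter windows cut to the same length. The endoplasmic reticulum stress element lay 65 bases before the start of Hspa5 and occurred in 0.113% of the windows on either strand. Neither motif was found in the windows of Hspa4 and Hspa4l, and the windows of Hsph1 held the tail-to-tail form TTCNNGAA, found in 7.17% of all windows. A match describes these letters and is no evidence of binding.

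The libraries held 8968 to 9965 barcodes and 36678332 to 48260748 UMIs, and 50149 nuclei of 11 marker-defined types were used: the photoreceptors (rods and cones), bipolar (BC), amacrine (AC), horizontal (HC) and retinal ganglion cells (RGC), the glia (Muller glia, astrocytes and microglia) and the vessel cells (endothelial cells and pericytes). A cluster was named only if it passed at least 3 markers of its type, so that count is no support for a name. The marker score was lowest for an AC cluster of 1322 nuclei (0.381) and a BC cluster of 691 nuclei (0.439). At a clustering resolution of 0.5, a cluster of 430 nuclei was named Muller glia with a score of 0.422. Its highest genes included Gm12128, Gpr149, Cntn6 and Ebf3, as did those of that AC cluster. Any 2 libraries shared 18 to 30 barcode sequences. IL-27 replicates 5 and 10 stood apart, with a chi-square per degree of freedom of 48.5 between their counts against 7.90 to 14.8 between saline libraries, and every pair of libraries differed beyond counting noise. Rods gave 17.0% of the UMIs in IL-27 replicate 10 and 7.62% in IL-27 replicate 5, against 8.47% to 11.3% in the saline libraries. Xist is transcribed from the inactive X chromosome. It was at a log2 CPM of 10.99 in saline replicate 2 and 10.96 in IL-27 replicate 5. In the other 4 libraries it was at 0.22 to 0.52, and the sex is not labelled for any library.

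When UMIs were summed over all marker-defined nuclei, none of the 10 chaperone genes differed between saline and IL-27 beyond the spread between libraries. The edgeR quasi-likelihood test called 0 of the 10 after adjustment (adjusted p 0.9998 for each), and 0 at an unadjusted p under 0.05. DESeq2 also called 0, with 1 member at an unadjusted p under 0.05. Among all 20231 genes tested, 0% were called and 2.88% had an unadjusted p under 0.05. The groups overlapped for all 10 members, while 4.02% of all genes were lower in every IL-27 library than in every saline library. A lower sum can come from fewer cells of a type that holds a gene or from less RNA per cell, and sums over all types cannot tell these apart.

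Hspa8 encodes the constitutive HSP70 of the cytosol, which folds new proteins and strips clathrin from vesicles. Its level was 123, 104 and 128 CPM (UMIs of the gene scaled to 1000000 UMIs of the library) in the saline libraries and 94.0, 80.6 and 118 CPM in the IL-27 libraries. IL-27 replicates 4 and 5 lay below every saline library, and IL-27 replicate 10 lay inside the saline range. The log2 fold change of IL-27 over saline (log2FC) was -0.29 (SE 0.13, unadjusted p 0.0507), the smallest unadjusted p of the 10 members. It ranged from -0.19 without IL-27 replicate 5 to -0.43 without IL-27 replicate 10. Among the libraries with Xist, IL-27 replicate 5 stood at a log2 ratio of -0.37 to saline replicate 2, and among those without it the means differed by -0.25.

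Hsp90ab1 and Hsp90aa1 encode the constitutive and the stress-responsive HSP90 of the cytosol. Hsp90ab1 was at 109, 93.4 and 112 CPM in saline and at 89.6, 70.9 and 109 CPM after IL-27 (log2FC -0.24, SE 0.14), with the same order of libraries as Hspa8 within each group. Hsp90aa1 was at 148, 136 and 153 CPM in saline and at 127, 93.1 and 176 CPM after IL-27 (log2FC -0.16, SE 0.18). The IL-27 libraries thus held both the lowest and the highest Hsp90aa1 level of the 6, and the SD of the IL-27 group was 41.8 CPM against 8.71 CPM in saline. Without IL-27 replicate 5 the log2FC of Hsp90aa1 turned to 0.03, and without IL-27 replicate 10 it was -0.39. The log2FC of Hsp90ab1 lay between -0.10 and -0.37 with these libraries left out in turn. Replicate 10, the highest of its group for both genes, was also the library with the largest share of rod UMIs. With every type given the same weight in each library, the log2FC was -0.27 (SE 0.14) for Hsp90aa1, -0.29 (SE 0.13) for Hsp90ab1 and -0.36 (SE 0.11) for Hspa8 in limma, none of them called (adjusted p 0.999).

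The stress-inducible HSP70 genes were scarce in these nuclei. Saline libraries yielded 107, 102 and 87 UMIs of Hspa1a and the IL-27 treated ones 107, 102 and 104, or 2.73, 2.99 and 2.41 CPM against 3.21, 2.94 and 3.39 CPM. The IL-27 values were higher on average, and IL-27 replicate 5 lay below saline replicate 2 (log2FC 0.22, SE 0.15). Keeping the nuclei with extreme totals moved this log2FC to 0.45 (unadjusted p 0.0346, adjusted p 0.9999). An equal cell type makeup in every library moved it to 0.062 (SE 0.11, unadjusted p 0.572 in limma). In IL-27 replicate 5 a single nucleus held 23 of the 102 Hspa1a UMIs, and the highest nucleus of each other library held 6 to 15. Hspa1b gave 41 to 47 UMIs per library, and its level was 1.24 CPM ± 0.140 (SD, n = 3) in saline and 1.34 CPM ± 0.0714 after IL-27 (log2FC 0.11, SE 0.19). The longest transcripts of Hspa1a and Hspa1b in the annotation were identical at 2592 of 2992 aligned bases. Their last 1000 bases, the end from which 3′ libraries are read, were identical at 634 of 1189 aligned positions (53.3%). Gaps count among these positions, and the cuts need not start at matching bases, so this share does not tell how alike the ends are. How the counting divided reads between the genes was not tested.

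Hspa5 encodes BiP, the HSP70 of the endoplasmic reticulum and a sensor of unfolded protein there. It was at 94.5, 105 and 107 CPM in saline and at 83.1, 103 and 99.1 CPM after IL-27 (log2FC -0.11, SE 0.096), and the log2FC was -0.033 without IL-27 replicate 4 and -0.187 without IL-27 replicate 5. Here IL-27 replicate 4 was the lowest library and IL-27 replicate 5 the highest of its group, an order unlike that of Hspa8.

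Hspa9 encodes mortalin, the mitochondrial HSP70, and lies on chromosome 18. Its level was 54.6 CPM ± 1.14 (SD, n = 3) in saline and 55.0 CPM ± 5.74 in the IL-27 libraries, of which replicate 10 was the highest of the 6 at 61.7 CPM.

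The HSP110 genes Hsph1, Hspa4 and Hspa4l encode large relatives of HSP70 that act as its nucleotide exchange factors. Hsph1 was at 24.8, 24.5 and 27.9 CPM in saline and at 26.0, 25.5 and 20.2 CPM after IL-27 (log2FC -0.11, SE 0.12). Without IL-27 replicate 10, its lowest library, the log2FC was 0.01. Hspa4 was at 99.8 CPM ± 2.21 in saline and 95.8 CPM ± 4.01 after IL-27 (log2FC -0.07, SE 0.062). Hspa4l was nearly the same in the saline libraries, at 96.2 CPM ± 0.101, and spread from 93.7 to 106 CPM after IL-27 (log2FC 0.05, SE 0.068), and its log2FC was 0.0030 without IL-27 replicate 4, 0.092 without IL-27 replicate 5 and 0.00099 with an equal cell type makeup.

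**Figure D1:**
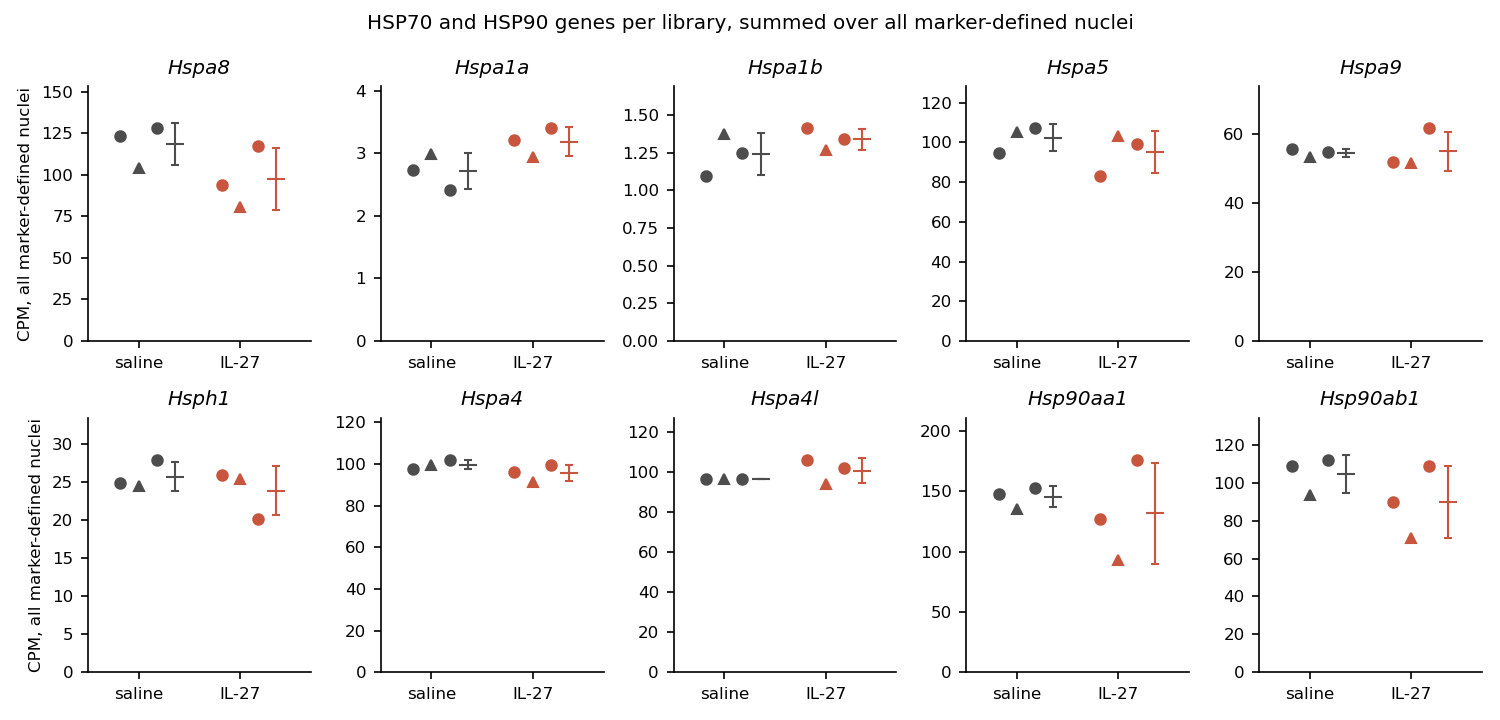
Level of each gene in CPM, on an axis from 0, in the 3 saline libraries (grey) and the 3 IL-27 libraries (red), summed over all marker-defined nuclei. Each point is a library, triangles are the libraries with Xist, and the bars give the mean and SD. The groups overlap in all 10 panels, and Hsp90aa1 spreads from 93.1 to 176 CPM within the IL-27 group.

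Read within each cell type, Hspa8 and both HSP90 genes had a negative log2FC in each of the 10 types in which they could be tested. Members passed the filter on low counts in 78 combinations of gene and type, and edgeR called 0 of these 78 (smallest adjusted p 0.504, for Hspa8 in Muller glia). An unadjusted p under 0.05 was reached in 16 of the 78, all with lower values after IL-27, and DESeq2 called 0 with 11 at an unadjusted p under 0.05. Among all genes tested by edgeR in these 10 types, 2.88% (AC) to 8.94% (Muller glia) had an unadjusted p under 0.05. The share with a negative log2FC was 49.1% (Muller glia) to 50.9% (AC). How many of all genes were negative in every type was not counted. The median log2FC over types was -0.37 for Hspa8, -0.30 for Hsp90aa1 and -0.31 for Hsp90ab1. For the other members tested in 8 or more types it lay between -0.12 (Hsph1) and 0.0037 (Hspa4l). The same 6 libraries stand behind every type, so the types are not independent of each other.

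**Figure D2:**
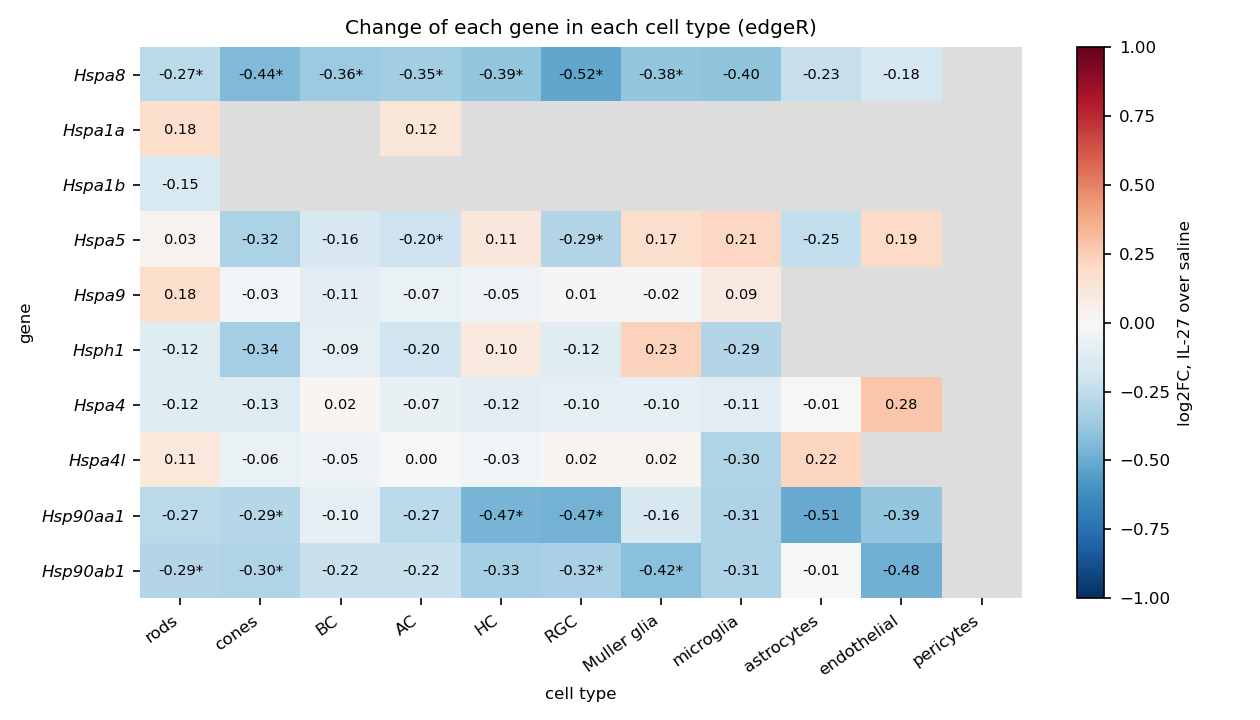
log2FC of IL-27 over saline (colour, and the number printed in each cell) of the 10 genes in 11 cell types, from edgeR. Asterisks mark an unadjusted p under 0.05, none of which passed adjustment, and grey cells were not tested. The rows of Hspa8, Hsp90aa1 and Hsp90ab1 are below 0 in every tested type, from -0.52 to -0.01.

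RGC held the most negative log2FC of Hspa8. Hspa8 was at 99.6, 88.1 and 115 CPM in the RGC of the saline libraries and at 62.9, 61.4 and 87.9 CPM after IL-27, and all IL-27 values lay below the lowest saline value (log2FC -0.52, SE 0.14, unadjusted p 0.00156, adjusted p 0.9999 in edgeR). Hsp90aa1 was at 88.6, 84.9 and 101 CPM and at 61.7, 56.9 and 78.5 CPM after IL-27, also without overlap (log2FC -0.47, SE 0.12, unadjusted p 0.00135). Hspa5 was at 58.2, 63.8 and 69.4 CPM in saline and at 50.6, 53.5 and 49.1 CPM after IL-27 (log2FC -0.29, SE 0.11). Of the 8 members tested in RGC, 0 were called against 0% of 13613 genes, 4 had an unadjusted p under 0.05 against 3.42% of genes, and 3 were lower in every IL-27 library against 5.77%. Without the filter on low counts, Hspa8 in RGC had an adjusted p of 0.0337, among 18 genes called of 23892.

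Cones had the most negative log2FC of Hspa8 after RGC. The Hspa8 level in cones was 188, 149 and 203 CPM in saline and 141, 128 and 126 CPM after IL-27, with no overlap (log2FC -0.44, SE 0.14, unadjusted p 0.00484). Hsp90aa1 was at 259, 236 and 267 CPM against 227, 181 and 212 CPM, and Hsp90ab1 at 137, 124 and 117 CPM against 115, 87.6 and 102 CPM. Both HSP90 genes were lower in every IL-27 library than in any saline library (log2FC -0.29, SE 0.12, and -0.30, SE 0.13). In cones 0 of 8 members were called against 0% of 11115 genes, 3 had an unadjusted p under 0.05 against 3.74%, and 4, the fourth being Hspa4, did not overlap and were lower against 4.97%.

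In rods Hspa8 was at 278, 236 and 283 CPM in saline and at 207, 206 and 246 CPM after IL-27 (log2FC -0.27, SE 0.10, unadjusted p 0.0218), and IL-27 replicate 10 lay above saline replicate 2. Hsp90ab1 followed at 209, 164 and 197 CPM against 159, 131 and 172 CPM (log2FC -0.29, SE 0.12, unadjusted p 0.0271). Hsp90aa1 was at 477, 405 and 445 CPM against 382, 281 and 433 CPM (log2FC -0.27, SE 0.13). Of the 10 members tested in rods, 0 were called against 0.00738% of 13550 genes, 2 had an unadjusted p under 0.05 against 3.35%, and 1, Hspa4, was lower in every IL-27 library against 3.98%.

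In Muller glia the HSP90 gene Hsp90ab1 was at 90.3, 89.7 and 113 CPM in saline and at 69.4, 55.6 and 91.6 CPM after IL-27 (log2FC -0.42, SE 0.17, unadjusted p 0.0324), with replicate 10 inside the saline range. Hspa8 was at 87.0, 74.0 and 104 CPM against 66.6, 56.7 and 77.1 CPM (log2FC -0.38, SE 0.15, unadjusted p 0.0285). Of the 8 members tested, 0 were called against 0.0284% of 14075 genes, 2 had an unadjusted p under 0.05 against 8.94%, and 0 were lower in every IL-27 library against 8.09%. Without IL-27 replicate 10 the adjusted p of Hsp90ab1 was 0.0511. The Muller glia pooled 2 clusters. The smaller held 233, 221 and 108 nuclei of the saline libraries and 12, 6 and 105 of the IL-27 libraries, so the makeup of the class differed between the groups. Its match to Muller glia was weaker, with 8 markers passed against 10 and a marker score of 1.69 against 3.57 in the larger cluster. Its highest genes included Fbln1, Slc6a13 and Col18a1, and without doublet removal a cluster led by the same genes was named pericytes. Without the smaller Muller cluster 0 of the 8 members had an unadjusted p under 0.05 in edgeR (smallest adjusted p 0.955). The log2FC was then -0.21 for Hsp90ab1 (SE 0.16, unadjusted p 0.215) and -0.29 for Hspa8 (SE 0.14, unadjusted p 0.0618). Hspa5 and Hsph1 had positive log2FC in Muller glia (0.17, SE 0.19, and 0.23, SE 0.15).

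In AC Hspa8 was at 106, 84.8 and 106 CPM in saline and at 76.8, 64.4 and 91.3 CPM after IL-27 (log2FC -0.35, SE 0.12, unadjusted p 0.0138), and only replicate 10 entered the saline range. Of the 9 members tested in AC, 0 were called against 0.00588% of 17008 genes, 2 (Hspa8 and Hspa5) had an unadjusted p under 0.05 against 2.88%, and 0 were lower in every IL-27 library against 4.97%. Immediate early genes, which neurons raise on activity, were lower after IL-27 in 16 of 16 tested in AC (median log2FC -0.57) and in 14 of 14 in RGC (median -0.62), with 0 called, where 50.9% and 50.03% of all genes tested in these types were lower. They were lower in 4 of 13 in rods (median 0.10), 3 of 10 in cones (0.04), 7 of 12 in BC (-0.12), 6 of 12 in Muller glia (-0.06) and 5 of 7 in microglia (-0.01). The summed level of 15 phototransduction genes, most of which mark rods and which can reach a droplet as free rod RNA, was 737 to 830 CPM in the AC of the saline libraries and 742, 483 and 967 CPM in those of IL-27 replicates 4, 5 and 10. In RGC it was 581 to 620 CPM and 579, 392 and 654 CPM. Their part in the chaperone values was not tested.

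In BC Hspa8 was at 106, 78.7 and 103 CPM in saline and at 76.0, 62.0 and 83.4 CPM after IL-27 (log2FC -0.36, SE 0.13, unadjusted p 0.0148). Among 8 members tested in BC, 0 were called against 0% of 15010 genes, 1 had an unadjusted p under 0.05 against 3.10%, and 1, Hspa5, was lower in every IL-27 library against 5.79%. In HC 0 of 8 were called against 0% of 7614 genes, 2 (Hspa8 and Hsp90aa1) had an unadjusted p under 0.05 against 4.96%, and 1, Hsp90ab1, was lower throughout against 4.45%. In microglia 0 of 8 were called against 0.0219% of 9132 genes and 0 had an unadjusted p under 0.05 against 3.54%, while 2 of the 8, Hsp90ab1 and Hspa4l, were lower in every IL-27 library against 4%. Hspa1a, with 18 microglial UMIs in all and not tested there, was at 6.95, 7.03 and 7.98 CPM in saline and at 1.57, 1.99 and 4.51 CPM after IL-27. Microglial Hspa8 ranged from 183 to 279 CPM in saline and from 139 to 203 CPM after IL-27.

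Astrocytes and endothelial cells gave few counts. In astrocytes 0 of 6 members were called against 0% of 3737 genes, 0 had an unadjusted p under 0.05 against 3.61%, and 0 were lower in every IL-27 library against 3.85%. In endothelial cells 0 of 5 were called against 0% of 2583 genes, 0 had an unadjusted p under 0.05 against 3.37%, and 0 were lower throughout against 4.26%. No member passed the filter in the 117 pericytes.

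**Figure D3:**
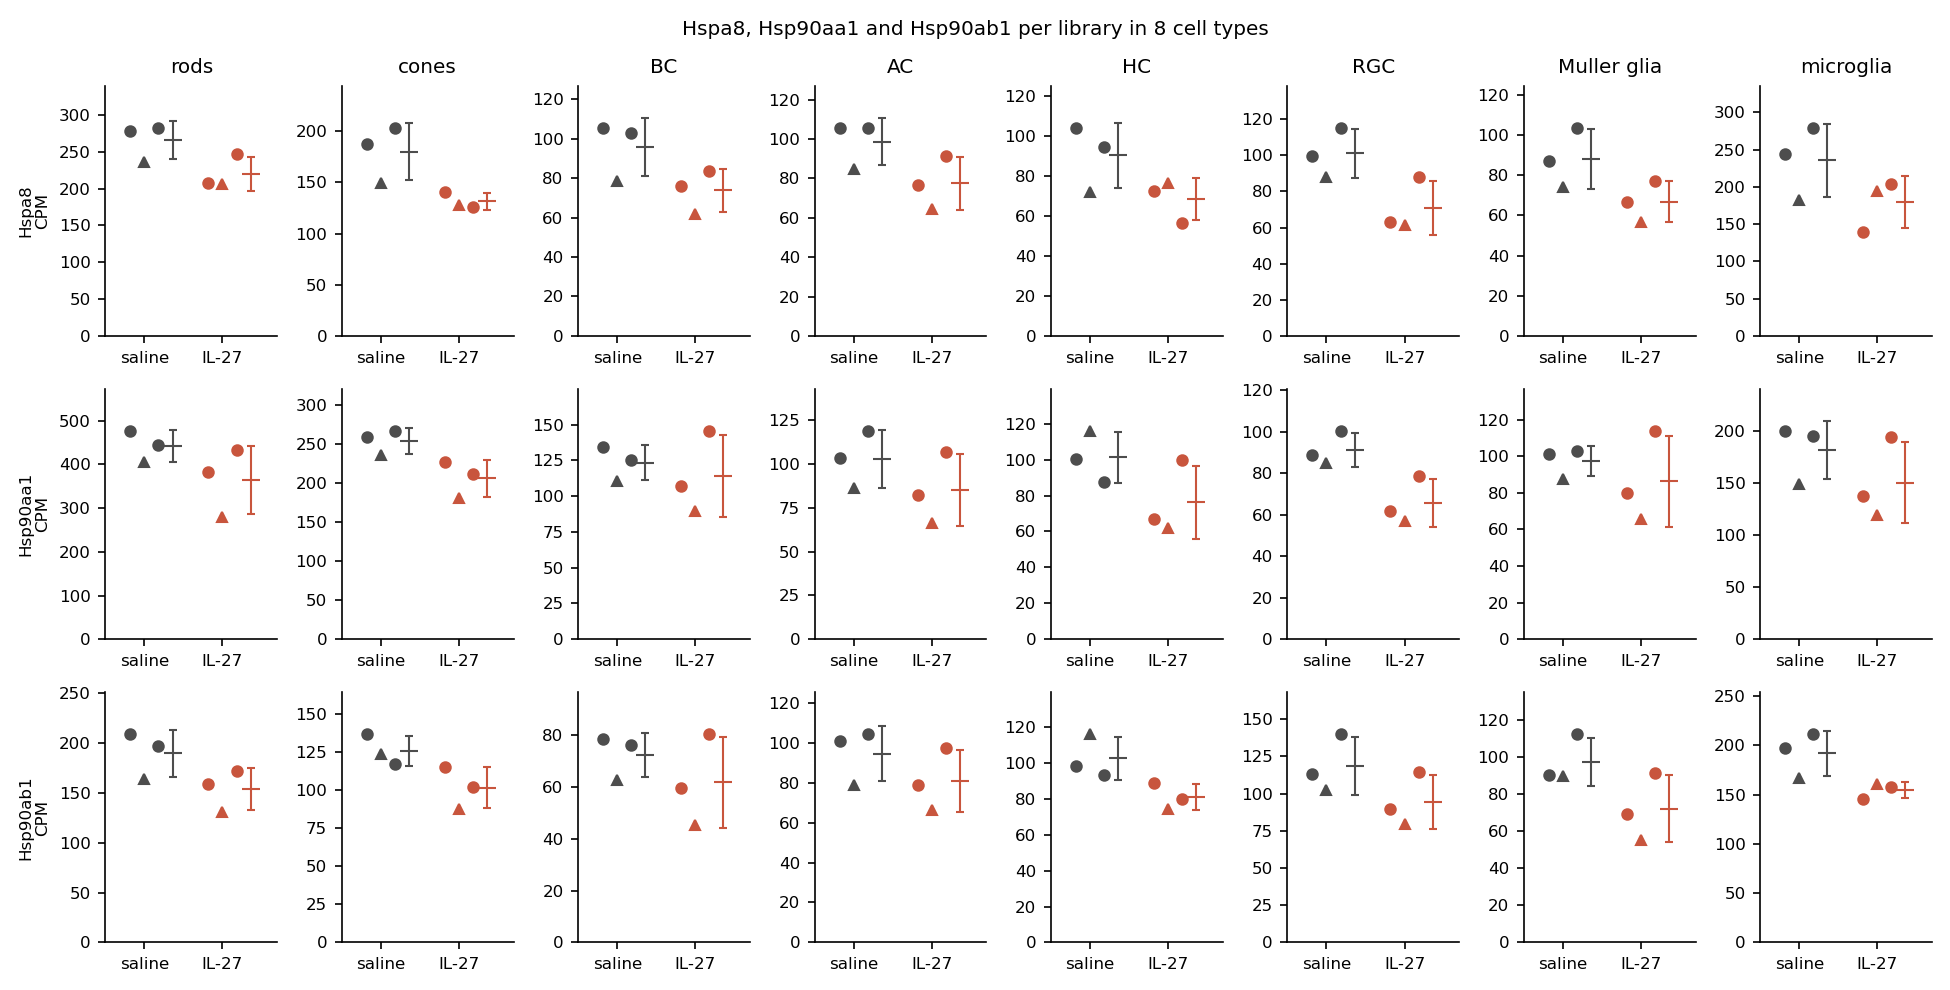
Level in CPM, on axes from 0, of Hspa8, Hsp90aa1 and Hsp90ab1 (rows) in 8 cell types (columns) for the saline libraries (grey) and the IL-27 libraries (red). Each point is a library, triangles are the libraries with Xist, and bars give the mean and SD. In most panels the triangle is the lowest point of its group, as for Hspa8 in RGC at 88.1 CPM in saline and 61.4 CPM after IL-27.

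The order of the libraries repeated from type to type. IL-27 replicate 5 was the lowest of the 6 libraries for Hsp90aa1 in 10 of 10 types, for Hsp90ab1 in 9 of 10 and for Hspa8 in 7 of 10. IL-27 replicate 10 was the highest of its group in 9, 6 and 7 of these types. No saline library was the lowest of the 6 for any of the 3 genes in any of the 10 types. The number of types with Hspa8 lower at an unadjusted p under 0.05 was 7, and it was 2 without saline replicate 1, 3 without saline replicate 6, 4 without IL-27 replicate 5 and 8 without saline replicate 2. Saline replicate 2 and IL-27 replicate 5 are the libraries with Xist, and both lay at the low end of their groups for Hspa8. With Xist as a covariate the log2FC of Hspa8 over all nuclei was -0.30 (SE 0.085, unadjusted p 0.00828, adjusted p 0.999). In RGC the Hspa8 log2 ratio was -0.52 between the libraries with Xist and -0.51 between the means of those without it. In microglia and HC it was 0.094 and 0.080 between the libraries with Xist and -0.61 and -0.62 between the others.

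Whether the response of a chaperone gene differed between cell types was tested directly, in 1 limma model over all types with the library as a block. Of the 9 members that could enter, 0 were called against 0.283% of 15557 genes, and 0 had an unadjusted p under 0.05. The smallest p was 0.157 (Hspa5) and that of Hspa8 was 0.679. The contrast of rods and cones against the other types called 0 members and 0% of 13418 genes. For Hspa8 the difference was 0.0036 (SE 0.13) on the log2 scale, and for Hsp90aa1 it was 0.077 (SE 0.16). The larger values in RGC and cones are therefore not shown to differ from those in other types.

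The share of nuclei with a UMI was compared after each nucleus was thinned to 1000 UMIs, which left out 5.79% to 10.9% of the nuclei of a library. Retained rod nuclei had a median of 1265 UMIs, and the types of the nuclei left out were not counted. These shares pool all types. Before thinning, rods were 24.0% to 31.9% of the nuclei in saline and 33.1%, 23.9% and 41.4% in IL-27 replicates 4, 5 and 10. The part of the rod share in these values was not tested. Hspa8 was found in 14.2%, 11.8% and 14.8% of the nuclei of the saline libraries and in 11.2%, 9.85% and 13.8% of those of the IL-27 libraries (two-sided exact permutation p 0.20, where 3 libraries against 3 cannot go below 0.1). The Hsp90ab1 share was 11.7%, 10.95% and 12.3% against 9.44%, 7.81% and 11.2% (exact p 0.20), and that of Hsp90aa1 was 17.4%, 16.8% and 16.8% against 15.1%, 10.8% and 19.9% (exact p 0.70). The groups overlapped for all 10 members at this depth, and they did not for 7.93% of 20231 genes. Without thinning 6 members (Hspa8, Hsp90ab1, Hspa4, Hspa4l, Hspa9 and Hspa1b) had lower shares in every IL-27 library, as had 21% of those genes, against 4.07% after thinning, so the unthinned count moves with depth. The unthinned share of Hspa8 was 34.3% to 40.4% in saline and 27.6% to 32.7% after IL-27. The median UMIs per nucleus were 3576 to 3774 in saline and 3008, 3608 and 2775 in IL-27 replicates 4, 5 and 10. Hspa1a was found in 0.256% to 0.461% of thinned nuclei and Hspa1b in 0.122% to 0.223%. These chaperones are not known to be absent from any retinal type, so no background share could be set beside these values.

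Levels of each gene across cell types, given as the mean ± SD of 6 libraries and compared only within a gene, placed rods first for 5 of the 10. Hsp90aa1 was at 404 CPM ± 68.7 in rods and 230 CPM ± 31.7 in cones, and it lay higher in rods than in cones, and higher in cones than in microglia (166 CPM ± 34.9), in each of the 6 libraries. Hspa9 was at 96.8 CPM ± 9.02 in rods and 77.7 CPM ± 5.21 in cones, again apart in each library, and stood at 36.5 CPM ± 5.26 in HC at the end of the order. Hspa4l was at 201 CPM ± 12.4 in rods and 182 CPM ± 18.6 in cones, which were not apart in every library, and at 44.7 CPM ± 7.05 in microglia and 33.0 CPM ± 21.8 in endothelial cells at the low end. Hspa8 was at 243 CPM ± 33.2 in rods, 230 CPM ± 66.4 in endothelial cells and 207 CPM ± 48.9 in microglia, with no neighbours apart in all libraries, down to 77.5 CPM ± 16.4 in Muller glia. Hspa1a, with 301 of its UMIs in rods, was at 13.6 CPM ± 4.19 there and at 2.36 CPM ± 0.795 in cones.

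Other members led in other types. Hsph1 was highest in cones at 73.1 CPM ± 17.4, above the next type in each of the 6 libraries, and was at 31.3 CPM ± 2.70 in rods. Hspa5 was highest in microglia at 191 CPM ± 44.3 and lowest in RGC (57.4 CPM ± 7.96) and HC (41.0 CPM ± 8.26), and its steps from AC to BC, from BC to RGC and from RGC to HC held in each library. Hspa4 was at 145 CPM ± 12.4 in microglia, 137 CPM ± 51.9 in endothelial cells and 134 CPM ± 7.24 in rods, not apart from each other, with the other types between 79.9 and 122 CPM. Hsp90ab1 was highest in endothelial cells at 267 CPM ± 91.1, from 177 UMIs in all, and lowest in BC at 67.0 CPM ± 13.7. Hspa1b was at 6.197 CPM ± 1.62 in rods and 2.12 CPM ± 0.878 in cones, and endothelial cells stood at 8.51 CPM ± 8.71 from 6 UMIs.

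**Figure D4:**
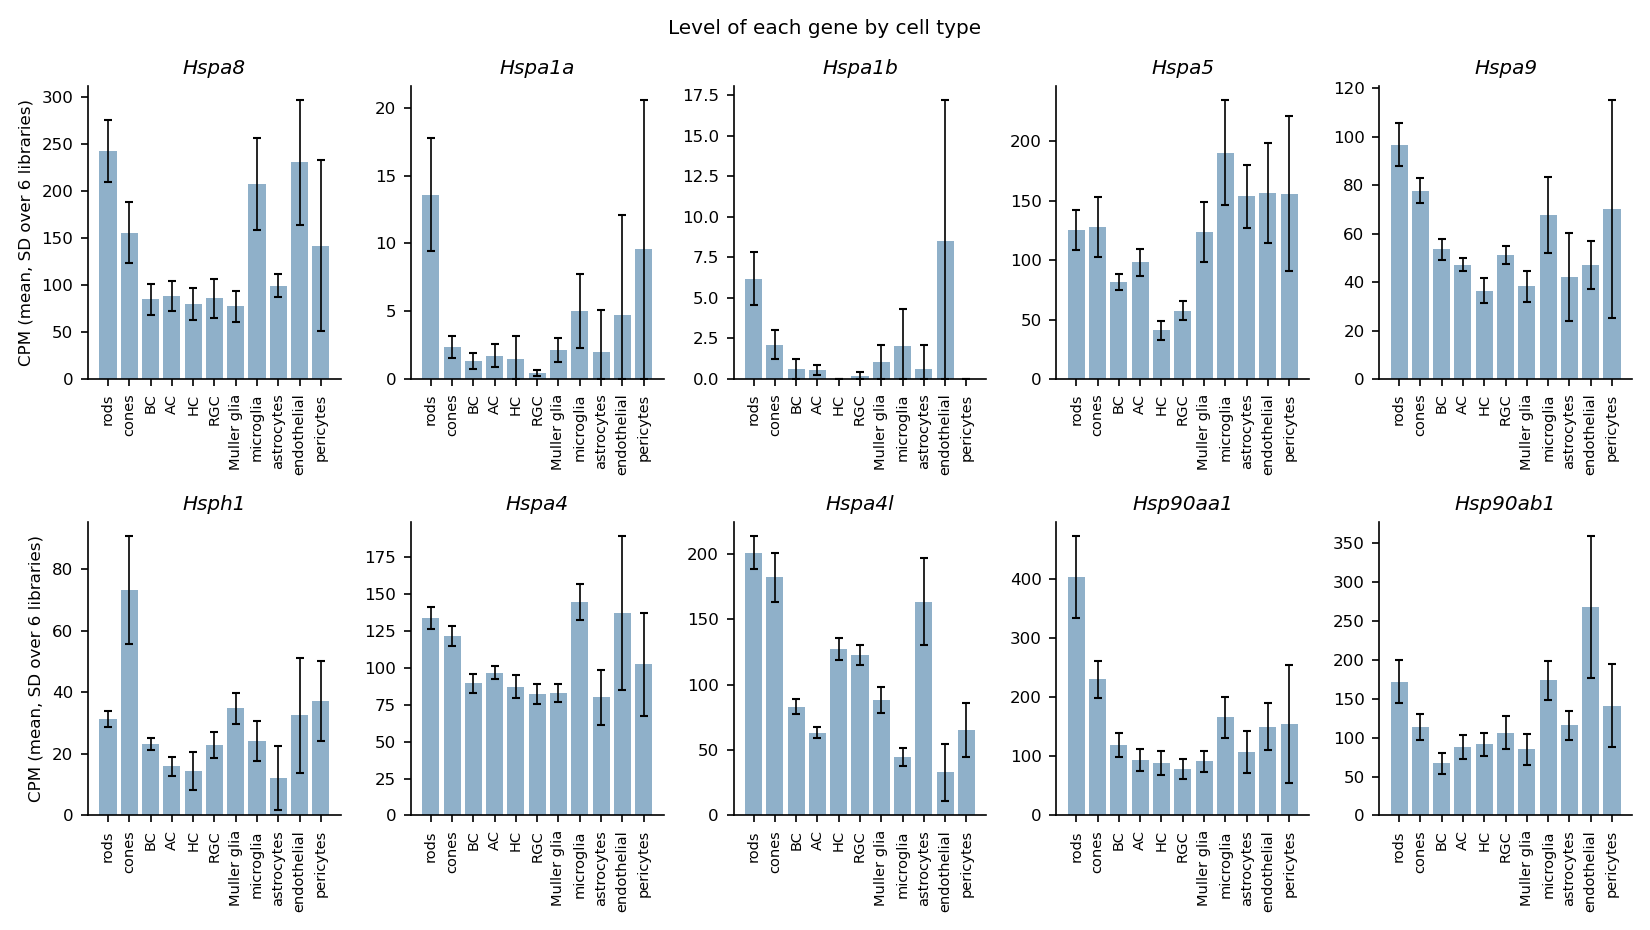
Level of each gene in CPM (bars, from 0) in 11 cell types, as the mean over the 6 libraries, with the SD as error bars cut at 0. Rods stand highest for Hsp90aa1 (404 CPM), Hspa8, Hspa9, Hspa4l and Hspa1a, cones for Hsph1 (73.1 CPM) and microglia for Hspa5 and Hspa4.

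The genes whose levels ran most like those of a member over the 11 types were found among 11233 genes with a mean of at least 10 CPM, by Pearson's r of the mean log2(CPM + 1). Hspa5 ran with Dnajb11 (r = 0.973) and Calr (r = 0.960), a J-domain protein and a lectin chaperone of the endoplasmic reticulum. Hsp90aa1 ran with Cul3 (r = 0.992) and Hmgn1 (r = 0.985), and Hspa8 with Cct4 (r = 0.970), a subunit of the cytosolic chaperonin, and Ndufb8 (r = 0.970). Hspa4l ran with Ift80 (r = 0.951) and Ttc26 (r = 0.946), which are parts of the intraflagellar transport train of cilia. Hsph1 had the least close neighbours, Cdk6 (r = 0.849) and Egr1 (r = 0.848). The nearest were Dhx15 and Rtraf for Hspa4 (r = 0.959 and 0.952), Snhg12 and Zcchc17 for Hspa9 (0.957 and 0.955), Actg1 and Vcp for Hsp90ab1 (0.929 and 0.926), Ndufb4 and Hspe1 for Hspa1a (0.938 and 0.933), and Nop53 and Uqcrb for Hspa1b (0.971 and 0.957). The points share libraries and depth, and types with few nuclei weigh as much as rods. Each r was picked as among the highest of 11233 genes over 11 points, so it is high partly through the picking. The floor of 10 CPM was not set for the members, and Hspa1a and Hspa1b had means over types of 4.03 and 1.99 CPM. Hspa1b had 0 UMIs in HC and in pericytes and 1 in astrocytes, so its pattern rests on few counts.

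The partners of HSP70 and HSP90 were followed in a list of 89 chaperone and stress genes, of which 88 were tested over all nuclei. edgeR called 0 of the 88, with 2 at an unadjusted p under 0.05, and DESeq2 called 0. The log2FC was below 0 for 65 of the 88 (median -0.06), against 49.4% of all 20231 genes (median 0.0017). By role, it was below 0 for 10 of 10 genes of the HSP60 and TRiC chaperonins, 12 of 14 HSP90 co-chaperones and 13 of 18 J-domain genes. It was below 0 for 8 of 10 exchange factors, 8 of 14 genes of endoplasmic reticulum stress and 5 of 7 small heat shock genes. The remaining roles had 4 of 6 further HSP70 genes, 3 of 5 heat shock factors, 1 of 2 further HSP90 genes and 1 of 2 mitochondrial protease genes below 0. The list was drawn up with results of these data known. Dnaja1, a J-domain partner of Hspa8, was at 91.3, 83.0 and 94.8 CPM in saline and at 74.9, 70.2 and 86.5 CPM after IL-27 (log2FC -0.23, SE 0.085, unadjusted p 0.0279). Hspb3, a small heat shock gene, was at 0.528 CPM against 0.291 CPM (log2FC -0.85, SE 0.30, unadjusted p 0.0204). In the other direction the smallest p belonged to Ern1 and Eif2ak3, sensors of unfolded protein in the endoplasmic reticulum, with log2FC of 0.14 (SE 0.070, unadjusted p 0.0723) and 0.14 (SE 0.084, unadjusted p 0.143).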

How the data were processed

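Nuclei of 6 libraries were profiled with 10x Chromium 3′ chemistry. The deposited values are whole UMI counts per gene and barcode, which the authors made with Cell Ranger (8.0.1 in the matrix headers, 9.0.1 in the submitters' processing notes, which also name Seurat 5.2.1) and did not normalize. The genome build is not given in the sources used here. A barcode was retained if its UMIs exceeded 500, it held 200 or more genes and its mitochondrial share was below 5%. Scrublet scores (scanpy 1.11.5) marked doublets, with 8% taken as the rate before correction for homotypic pairs. Louvain clusters (igraph 0.11.9; 2000 variable genes without the chaperone and immediate early genes, 25 components, 20 neighbours, resolution 0.25, seed 20) were named from fixed markers. UMIs were added up per library and type, leaving aside nuclei with a log2 total beyond 2 median absolute deviations of its median. After filterByExpr (10 counts) and TMM scaling, the quasi-likelihood test of edgeR 4.0.16 (R 4.3.3) was run, with Benjamini-Hochberg adjustment over every gene of a type and a threshold of 0.05. CPM are counts scaled to 1000000 of these sums. The SE of an edgeR log2FC was taken as its absolute size divided by the square root of the F statistic. Differences between types were tested with limma 3.58.1 (voom, library as a block), in which a gene entered only with the types where it passed the filter, because simulated data gave too many false calls otherwise. Alternatives included DESeq2 1.42.0. Tests on simulated data covered edgeR over all nuclei and in rods, RGC and microglia. They also covered DESeq2 and limma over all nuclei and the model between types, and no other fit. Columns belonging to no sample numbered 0. The members and lists were chosen with earlier results of these data known. Named were the 10 members, up to 5 network genes per direction past the threshold or else the 2 of smallest p, and the 2 genes most like each member. Left out were 2 clusters (1149 nuclei) that were given no name, although BC was the best match of both. The larger (999 nuclei) had a marker score of 1.41 for BC and 0.973 for cones. The smaller (150 nuclei) had 2.96 for BC and 1.83 for rods. At the alternative resolution, clusters with the same numbers of nuclei per library were named BC.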

Additional observations from a re-analysis of the deposited data

Results flagged for a closer look

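Hspa4l was higher in every IL-27 library than in every saline library in endothelial cells (18.0 CPM in saline and 48.0 CPM after IL-27). These values rest on 23 UMIs in all (1, 1 and 4 in saline, 8, 5 and 4 after IL-27), too few for edgeR. In microglia Hspa4l was lower in every IL-27 library (49.7 and 39.7 CPM), so the groups stood in opposite order in these types. Among all genes tested, the groups did not overlap for 8.36% in endothelial cells and 8.57% in microglia. The test of a difference between types took for Hspa4l the 9 types in which it passed the filter, without endothelial cells, and gave a p of 0.502. With all 11 types in the test, a form that made too many false calls on simulated data, the p was 0.00516 (adjusted p 0.0929), which is not a call. Endothelial cells and microglia alone were not compared by a test.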

How the results depend on the processing

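No paired analysis was possible because the groups share no replicate numbers. The 0 calls among the members and among the 88 network genes over all nuclei held under each of the 20 alternatives run, and the 0 members with a difference between types under each of 11, among them the test with all types for every gene, which was added after the values were seen. Calls by cell type stayed at 0 under 16 of 17 alternatives and came to 1 without the filter on low counts (Hspa8 in RGC). The types did not hold the same nuclei under each of these. Without doublet removal the pericyte class held 893 nuclei, against 117 in the main fit. The number of members whose thinned detection shares did not overlap was 0, and it was 1 at 500 UMIs (Hspa9, higher in every IL-27 library, where 8.74% of all genes did not overlap), 6 without thinning, all lower, and 0 to 4 with a library left out, against 14.1% to 22.4% of all genes. The log2FC of Hspa1b over all nuclei reversed with an equal cell type makeup (-0.025). That of Hspa9, at 0.0023, reversed with equal makeup (-0.023), without the filter (-0.0021), at a resolution of 0.5 (-0.00088) and with unnamed clusters included (-0.00021), and lay between -0.064 and 0.037 with a library left out. With a library left out, Hsph1 lay between -0.187 and 0.012 and Hsp90aa1 between -0.391 and 0.035. The cause of these shifts was not tested. With 3 libraries a group, and 41 to 107 UMIs of Hspa1a or Hspa1b in each, small differences were not detectable at this depth.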
